A study of Mus musculus with 13 samples.

Results

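The genes described here code for the phagocyte NADPH oxidase and for the receptors and kinase that lie upstream of it in white blood cells. They were chosen by name from the table of liver counts, and 8 of its 53465 genes are members. *Cybb*, *Cyba*, *Ncf1* and *Ncf4* code for subunits of the oxidase, *Rac2* for the GTPase that switches it on, *Fpr1* and *Fpr2* for formyl peptide receptors, and *Fgr* for a Src kinase of myeloid cells. The levels of these genes in WT mice were compared with those in Nod2-/- mice. Liver RNA came from 6 WT and 7 Nod2-/- male BALB/c mice, with 1 library per mouse. *Nod2* codes for an intracellular sensor of bacterial peptidoglycan fragments. Mice of both genotypes had received the carcinogen DMBA once on the skin as pups. Both then stayed on HFD, a high-fat diet, for 30 weeks according to the labels, which also give 30 weeks as the age. The genotypes were bred in the same room and were not littermates, and no untreated liver was among the samples. Every library carries the label cancer, which does not tell livers with tumors from livers without. The paper reports liver tumors in a larger share of Nod2-/- than of WT males after this treatment. Genotype and tumors can therefore not be told apart here. Replicate numbers name mice within a genotype.

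The phagocyte NADPH oxidase moves electrons from NADPH across a membrane to oxygen and so makes superoxide, a reactive oxygen species used to kill microbes. *Cybb* (gp91phox) and *Cyba* (p22phox) form the membrane part that carries the electrons. In a resting cell the subunits coded by *Ncf1* (p47phox) and *Ncf4* (p40phox), among others, wait in the cytosol, and they join the membrane part together with a Rac GTPase when the cell is activated. Formyl peptide receptors bind peptides that start with formylmethionine, which bacteria and damaged mitochondria release, and they guide neutrophils and monocytes and trigger the oxidase. In the liver the phagocytes are mainly Kupffer cells, the resident macrophages, with neutrophils and monocytes arriving from blood.

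Depth was between 13824780 and 20579984 counts per mouse, and 13545 genes passed the expression filter and were tested. *Nod2* itself had between 0 and 4 counts per WT mouse and between 1 and 6 per Nod2-/- mouse, too few to check the genotype labels. Albumin and the other hepatocyte markers were abundant in all 13 libraries, with a summed level of 81614 to 115144 CPM (counts scaled to a fixed library total) in WT mice and 87390 to 182150 CPM in Nod2-/- mice. Nod2-/- replicate 7 stood apart in white blood cell genes, and leaving out WT replicate 3 moved the number of genes past 5% FDR most. The tests of the members are therefore also given without these mice. Because whole liver was sequenced, fewer cells of a type and less RNA per cell cannot be told apart in any of these values.

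The 8 members lie on 6 chromosomes, X, 8, 5, 15, 17 and 4, and only *Fpr1* and *Fpr2* are close neighbours. On build GRCm38, *Cybb* (ENSMUSG00000015340.10) spans 9435252 to 9487771 of chromosome X and *Cyba* (ENSMUSG00000006519.11) 122424776 to 122432930 of chromosome 8, which also carries *Nod2*. *Ncf1* (ENSMUSG00000015950.13) lies at 134220053 to 134229625 of chromosome 5 and *Fgr* (ENSMUSG00000028874.14) at 132974095 to 133001910 of chromosome 4. *Ncf4* (ENSMUSG00000071715.11, 78244801 to 78262580) and *Rac2* (ENSMUSG00000033220.6, 78559167 to 78572783) are both on chromosome 15. *Fpr1* (ENSMUSG00000045551.7) spans 17876471 to 17883940 and *Fpr2* (ENSMUSG00000052270.7) 17887824 to 17893952 of chromosome 17. The 250 bases before the RefSeq start site are shown for *Cybb*, which codes for the catalytic subunit, and for *Fpr2* and *Fgr*, the members with the largest fold changes. Each was read 5′ to 3′ on the strand of the gene from the RefSeq table of build GRCm38.p6, and capitals mark a match to a searched motif. The *Cybb* stretch is chrX:9469325-9469574 on the minus strand and ends at a RefSeq start that lies inside the longer GENCODE gene span. The *Fpr2* stretch is chr17:17887574-17887823 on the plus strand, and the *Fgr* stretch is chr4:132973845-132974094 on the plus strand.
*Cybb*: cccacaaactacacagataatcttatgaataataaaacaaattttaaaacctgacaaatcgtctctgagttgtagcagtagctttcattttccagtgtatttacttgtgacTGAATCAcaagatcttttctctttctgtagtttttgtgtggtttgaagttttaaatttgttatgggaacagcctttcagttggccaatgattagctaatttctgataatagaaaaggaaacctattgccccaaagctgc
*Fpr2*: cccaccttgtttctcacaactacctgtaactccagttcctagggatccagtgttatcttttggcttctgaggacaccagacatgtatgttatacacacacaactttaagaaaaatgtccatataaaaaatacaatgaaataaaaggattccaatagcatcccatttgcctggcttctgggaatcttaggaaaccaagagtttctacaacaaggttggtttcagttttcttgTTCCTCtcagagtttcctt
*Fgr*: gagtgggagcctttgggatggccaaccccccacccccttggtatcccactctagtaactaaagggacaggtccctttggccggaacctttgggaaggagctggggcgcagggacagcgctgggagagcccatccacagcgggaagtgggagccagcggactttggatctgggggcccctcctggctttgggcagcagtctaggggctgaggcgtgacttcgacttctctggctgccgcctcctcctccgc

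The table held promoters for 6 of the 8 members, and *Ncf4* and *Rac2* had no entry. The letters GAGGAA (the core of sites for PU.1, a transcription factor of myeloid cells), TTGCNNAA (C/EBP) and TGANTCA (AP-1) were searched on both strands, with N for any base, and no match overlapped another. *Cybb* had 1 match to the AP-1 letters, TGAATCA, at 139 to 133 bases before the start. *Fpr2* had 1 match to the PU.1 core on the reverse strand, TTCCTC, at 19 to 14 bases before the start. The other 4 promoters, including that of *Fgr*, had no match to these letters in this window. Of 32851 promoters of the same length, 23.3% held the PU.1 core, 9.6% the C/EBP letters and 6.7% the AP-1 letters.

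Levels were compared between genes as CPM per kilobase of exon, which removes gene length. In WT livers *Cyba* was the most abundant member with 4.97 ± 1.18 CPM per kilobase (SD, n = 6), followed by *Cybb* at 1.43 ± 0.87 and *Rac2* at 1.15 ± 0.45. *Fpr1* (0.832 ± 0.488), *Ncf4* (0.716 ± 0.220) and *Ncf1* (0.621 ± 0.226) came next, and *Fpr2* (0.324 ± 0.128) and *Fgr* (0.269 ± 0.099) were lowest. Only *Cyba* stood clear of its neighbour in this order, since its lowest WT mouse (3.50) was above the highest WT value of *Cybb* (3.08), and all other neighbours overlapped. In Nod2-/- livers the order was *Cyba* (7.35 ± 3.93, SD, n = 7), *Cybb* (3.99 ± 5.06), *Rac2*, *Ncf4*, *Fpr1*, *Fpr2*, *Ncf1* and *Fgr* (0.875 ± 0.735), and the ranges of all neighbours overlapped. *Rac1*, the GTPase that most cells use in place of *Rac2*, was far above all members at 31.7 and 31.9 CPM per kilobase in WT and Nod2-/- livers.

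**Figure D1:**
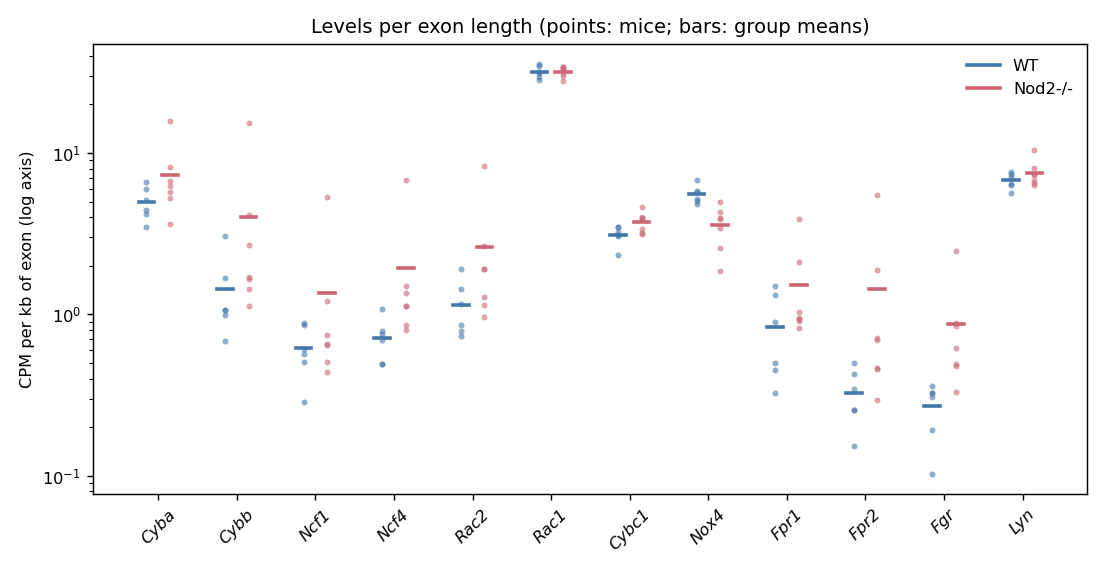
Levels of the members and their partners as CPM per kilobase of exon on a log axis, with 1 point per mouse and bars for the means of 6 WT (blue) and 7 Nod2-/- (red) mice. Cyba is the highest member and Fgr the lowest in both genotypes, Rac1 lies near 32 in both, and Nox4 is the one gene shown whose Nod2-/- mean is below its WT mean.

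The mean of every member was higher in Nod2-/- than in WT livers, but none of them passed 5% FDR. Differences are log2 fold changes of Nod2-/- against WT from the quasi-likelihood test of edgeR, with their standard error (SE) and a p-value adjusted over all 13545 tested genes. At an unadjusted p under 0.05, 5 of the 8 were higher, against a background of 12.9% of all tested genes. At 5% FDR the background was 0.65% of genes higher and 0.509% lower, and 10.2% were lower at an unadjusted p under 0.05. An exact permutation test of log2 CPM (two-sided, unadjusted) gave p under 0.05 only for *Fgr*, *Ncf4* and *Fpr2* (p = 0.0256 for *Fpr2*). *Cybb* and *Rac2*, under 0.05 in edgeR, were not under it by this exact test (p = 0.1002 and 0.0781). *Cyba*, *Ncf1* and *Fpr1* were above 0.05 in both. No background share is given for the exact test. The median log2 fold change of the members was 1.30, beside 0.02 over all tested genes. DESeq2 called 2 of the 8, *Fpr2* and *Fgr*, against a background of 3.82% of genes higher, and voomWithQualityWeights of limma called none. Genotype ranges did not separate for any of the 8 members, against 0.753% of all genes in which every Nod2-/- mouse was above every WT mouse and 0.687% in which every one was below. The study itself named several of these genes from the same samples, so their direction here is not independent evidence.

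Among the membrane subunits, *Cybb* had 65.8 to 296 normalized counts in WT mice (median 103) and 108 to 1468 in Nod2-/- mice (median 165). The 1468 of Nod2-/- replicate 7 was the highest of all mice, and only this mouse and replicate 5 (396) were above every WT mouse. Its log2 fold change was 1.48 (SE 0.60, adjusted p = 0.166), with means of 137 ± 84.0 (SD, n = 6) and 384 ± 488 (SD, n = 7). Replicate 7 held 54.6% of the Nod2-/- total. *Cyba*, which codes for the partner that stabilizes *Cybb* and also serves other oxidases, had 60.3 to 115 normalized counts in WT mice (median 81.8) and 62.5 to 270 in Nod2-/- mice (median 108). Its genotype ranges overlapped for 4 of the 7 Nod2-/- mice, and its log2 fold change of 0.56 (SE 0.28, adjusted p = 0.248) was the smallest of the members.

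*Ncf1* codes for the organizer subunit that brings the cytosolic part to the membrane once it is phosphorylated. It had 17.4 to 53.7 normalized counts in WT mice (median 35.8) and 26.8 to 322 in Nod2-/- mice (median 39.9). Apart from replicates 5 and 7, all Nod2-/- mice lay within the WT range, and replicate 7 held 55.9% of the Nod2-/- total. This gave *Ncf1* a log2 fold change of 1.13 (SE 0.57, adjusted p = 0.248). Exons of *Ncf1* share 408 bases with *Gtf2ird2* on the opposite strand, and the counting program is not given in the sources used here, so some *Ncf1* counts are uncertain. *Ncf4*, whose protein binds membrane lipid in phagosomes, had 16.4 to 36.2 normalized counts in WT mice (median 24.3) and 26.8 to 227 in Nod2-/- mice (median 37.9). Of the 7 Nod2-/- mice, 5 were above every WT mouse. The highest WT value was that of replicate 3, without which the next highest (26.3) lay just below the lowest Nod2-/- mouse (26.8). Its log2 fold change was 1.43 (SE 0.50, adjusted p = 0.118), and an exact permutation test of log2 CPM gave p = 0.0128 (two-sided, unadjusted). In DESeq2 the count of 232 in replicate 7 was replaced by 32 as an extreme value, so that its log2 fold change of 0.59 (adjusted p = 0.102) rests on an imputed count.

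*Rac2*, the Rac GTPase of blood cells, ranged from 37.9 to 97.6 normalized counts in WT mice (median 52.0) and 49.6 to 427 in Nod2-/- mice (median 98.6). Nod2-/- replicates 3, 4, 5 and 7 were above every WT mouse, replicates 3 (98.6) and 4 (98.7) only just, since WT replicate 4 had 97.6. *Rac2* differed by 1.18 on the log2 scale (SE 0.47, adjusted p = 0.159).

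Of the receptors, *Fpr1*, which binds short bacterial formyl peptides with high affinity, had 7.2 to 32.9 normalized counts in WT mice (median 15.3) and 18.2 to 86.2 in Nod2-/- mice (median 20.9). The WT values spread widely, and again only Nod2-/- replicates 5 and 7 exceeded all of them. Its log2 fold change was 0.88 (SE 0.45, adjusted p = 0.261). *Fpr2*, a receptor for a broader set of peptides and for annexin A1, had 3.3 to 10.8 normalized counts in WT mice (median 6.4) and 6.3 to 118 in Nod2-/- mice (median 14.8). Nod2-/- replicates 3, 5, 6 and 7 were above every WT mouse, and replicates 1, 2 and 4 were within the WT range. Its log2 fold change of 2.11 (SE 0.67, adjusted p = 0.0965, and 0.0199 by DESeq2) was the largest of the members, but it rests on 3 to 12 raw counts per WT mouse. Replicate 7 held 54.8% of the Nod2-/- total. Without it *Fpr2* fell below the filter on low counts and was not tested, and its Nod2-/- mean was 16.1 ± 12.4 (SD, n = 6) beside 6.95 ± 2.76 (SD, n = 6) in WT mice. *Fpr2* was also untested without Nod2-/- replicate 2, 3, 5 or 6. Its place among the tested genes thus rested mostly on Nod2-/- mice, and its direction is not independent of the filter. *Fpr2* shares 48 exon bases with *Fpr3* on the same strand, and *Fpr3* had 0 counts in every mouse.

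*Fgr* codes for a Src family tyrosine kinase of neutrophils, monocytes and macrophages that acts below integrins and Fc receptors. It had 6.6 to 22.9 normalized counts in WT mice (median 20.3) and 21.2 to 159 in Nod2-/- mice (median 39.6). Every Nod2-/- mouse except replicate 1 was above every WT mouse, and replicate 1 (21.2) lay just under WT replicate 6 (22.9). The genotypes did not overlap without either of these 2 mice, but they were picked because they overlapped. No share of all genes was computed for that case. For *Fgr* the log2 fold change was 1.69 (SE 0.45, adjusted p = 0.0673, and 0.00714 with DESeq2), and the exact permutation test gave p = 0.00233 (two-sided, unadjusted). Without WT replicate 3, *Fgr* was past the threshold in edgeR too (log2 fold change 1.74, adjusted p = 0.0475), and it was the only member that was. In that fit the background also rose, to 697 of 13611 tested genes higher at 5% FDR, from 88 of 13545 with all mice.

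**Figure D2:**
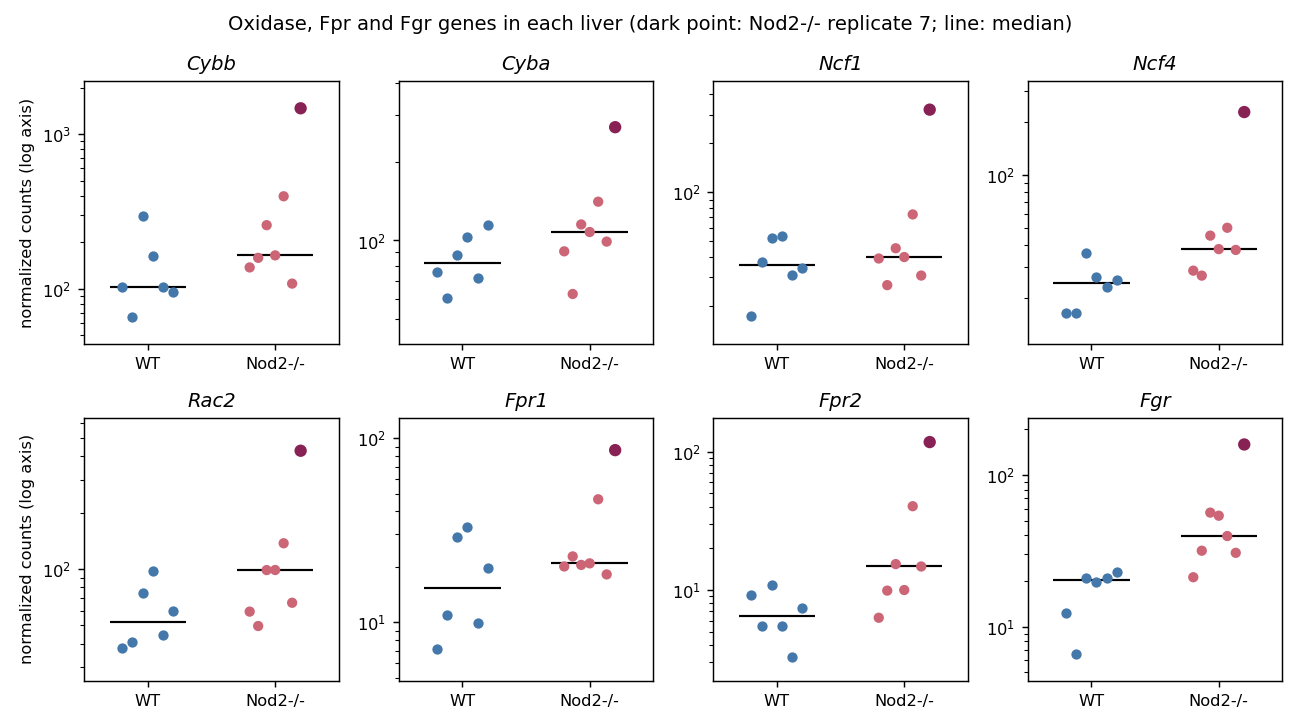
Normalized counts of the 8 genes in each liver, on log axes that differ between panels, for 6 WT (blue) and 7 Nod2-/- (red) mice, with a line at each median and Nod2-/- replicate 7 dark. Replicate 7 is the highest point in all 8 panels, and Fgr and Ncf4 are the panels in which most other Nod2-/- mice also lie above the WT mice.

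The 8 genes ranked the mice in much the same way. Nod2-/- replicate 7 was the highest of the 13 mice in all 8 members, and replicate 5 was second in 7 of them, with replicate 3 second for *Fgr*. The lowest mouse was WT replicate 1 in 4 members, WT replicate 2 in 3 and WT replicate 5 in 1. Across the 28 pairs of members, Pearson's r of log2 CPM over the 13 mice ranged from 0.72 to 0.95 (median 0.88), and without Nod2-/- replicate 7 from 0.34 to 0.87 (median 0.70). Within the 6 WT mice r ranged from −0.04 (*Ncf1* with *Fpr2*) to 0.97 (*Rac2* with *Fpr1*). These values are descriptions of points that share libraries and depth.

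Leaving out Nod2-/- replicate 7 left every tested member higher in Nod2-/- mice but made the differences smaller. Of the 7 members then tested, 2 had an unadjusted p under 0.05, against a background of 1346 of 13402 genes higher at that p in the same fit (10%). Over these 7, the median log2 fold change was 1.18 with all mice and 0.53 without replicate 7. Those 2 were *Fgr* (log2 fold change 1.16, SE 0.31, adjusted p = 0.106) and *Ncf4* (0.65, SE 0.23, adjusted p = 0.180). The log2 fold change of *Cybb* was then 0.57 and that of *Rac2* 0.53, while *Ncf1* was at 0.18 with an SE of 0.29. Without WT replicate 3 that of *Cybb* was 1.86 (adjusted p = 0.0824).

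**Figure D3:**
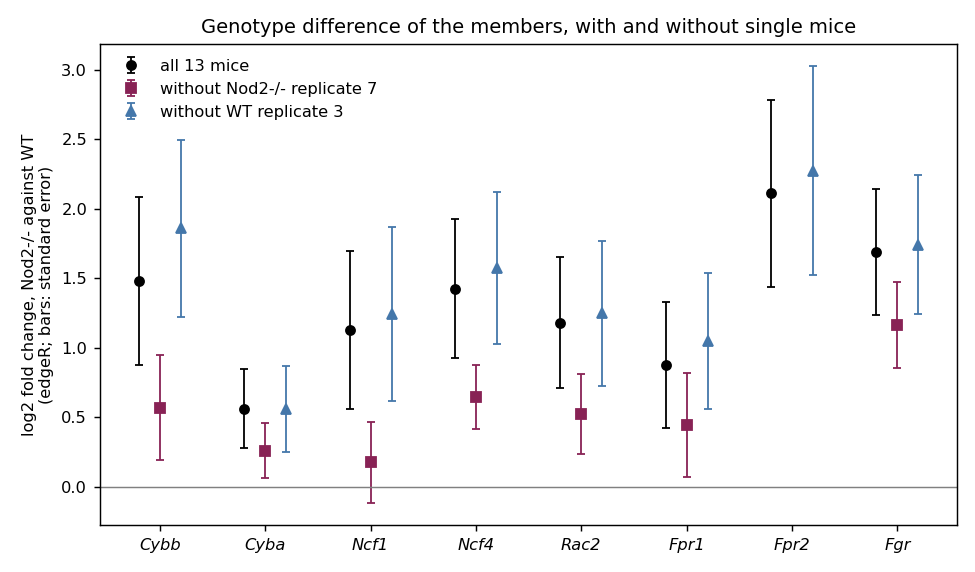
Log2 fold changes of Nod2-/- against WT with standard errors from edgeR, for all 13 mice (circles), without Nod2-/- replicate 7 (squares) and without WT replicate 3 (triangles). All points are above 0, the squares lie below the circles in each tested gene, and Fpr2 has no square because it fell below the filter without replicate 7.

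Genes of white blood cells in general were set beside the members. Of 7 pan-leukocyte markers, 6 had a positive log2 fold change, beside 7088 of all 13545 tested genes, with a median of 0.78 over the 7. At an unadjusted p under 0.05, 4 were higher (2 without Nod2-/- replicate 7), against a background of 12.9% of all tested genes (10% without it). None was past 5% FDR in edgeR, where DESeq2 called 1. That gene was *Coro1a*, an actin-binding protein of white blood cells and the largest at 1.56 (SE 0.45, adjusted p = 0.0793, and 0.0105 by DESeq2). The exception was *Lcp1* (−0.23), whose level per kilobase of exon in WT livers (9.59 CPM) was also the highest of the 7. Each member was therefore also expressed as a log2 ratio to the geometric mean of these 7 genes in the same mouse, and the 8 ratios were compared by two-sided exact permutation tests, unadjusted. On this scale *Fgr* was −2.58 ± 0.42 (SD, n = 6) in WT and −1.79 ± 0.30 (SD, n = 7) in Nod2-/- mice, a difference of 0.80 (exact permutation p = 0.000583, the smallest that 6 against 7 mice allow). All 7 Nod2-/- mice were above every WT mouse, by a narrow margin between the lowest Nod2-/- value of −2.12 and the highest WT value of −2.13. Such a separation was seen in 1 of 8 members, beside a background of 0.0738% of all tested genes. The list genes were themselves mostly higher in Nod2-/- mice, which lowers other genes in Nod2-/- mice on this scale. In normalized counts the share was 0.753%. Without *Lcp1* in the list, an alternative chosen after seeing the data, the difference of *Fgr* was 0.65 (exact permutation p = 0.00233). Against *Ptprc* alone, the gene for the leukocyte surface protein CD45, it was 0.56 (exact permutation p = 0.0484), the smallest difference among the alternatives run for this ratio. In both of these alternatives the genotypes overlapped.

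The other members did not separate relative to white blood cell genes. *Ncf4* had a ratio 0.39 higher in Nod2-/- mice (exact permutation p = 0.0169), which did not hold without *Lcp1* (p = 0.0839 by the same exact test) or against *Ptprc* alone (p = 0.423 by the same exact test). The differences were 0.68 for *Fpr2* (exact permutation p = 0.0997), 0.42 for *Cybb* (exact permutation p = 0.196), 0.25 for *Rac2* and 0.16 for *Fpr1*. For *Ncf1* and *Cyba* the differences were −0.01 and −0.15, below 0, and no Nod2-/- mouse had a *Cyba* ratio above the highest WT mouse.

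**Figure D4:**
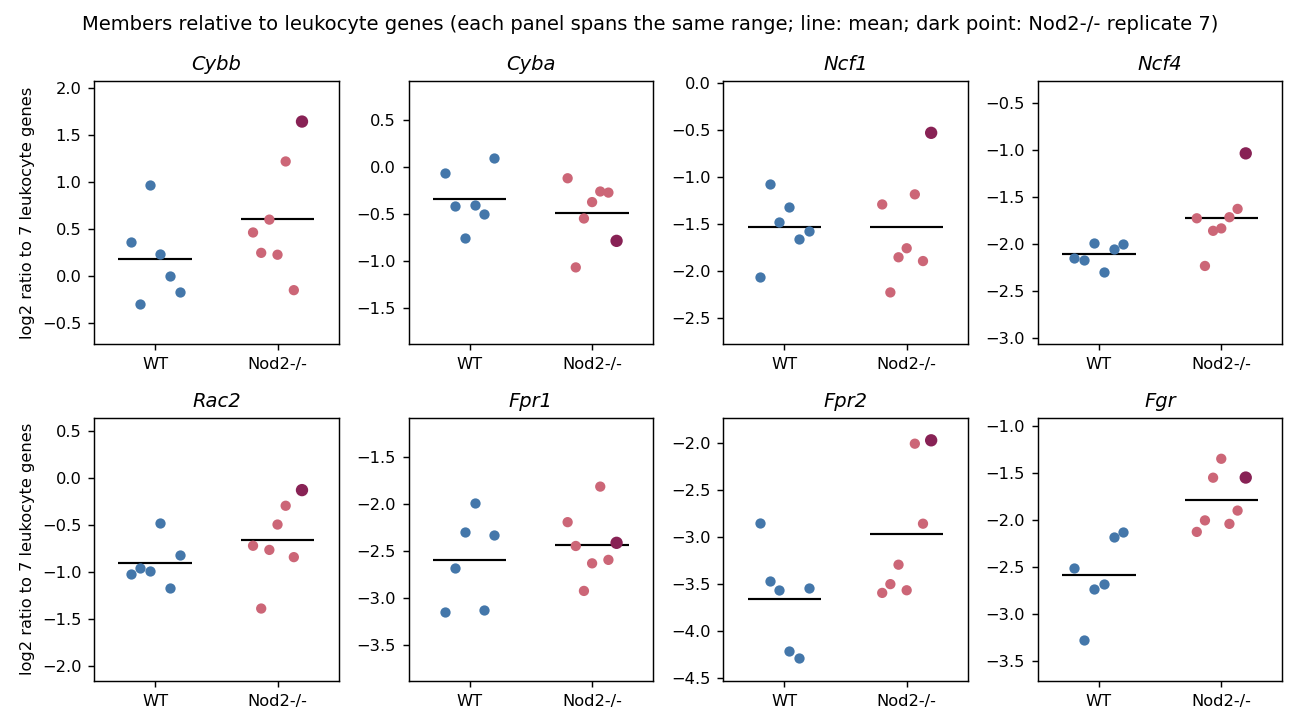
Log2 ratio of each member to the geometric mean of 7 leukocyte genes in the same mouse, for 6 WT (blue) and 7 Nod2-/- (red) mice, with lines at the means and every panel spanning the same range. Fgr is the panel in which all Nod2-/- mice lie above all WT mice, the lowest of them only just, and Cyba and Ncf1 show no higher mean in Nod2-/- mice.

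Marker genes of single cell types were read beside these values, and their part in the members' differences was not tested. The 15 neutrophil markers summed to between 4.36 and 12.0 CPM in a WT mouse and between 17.2 and 1090 CPM in a Nod2-/- mouse, with no overlap. The highest value was replicate 7, without which the Nod2-/- maximum was 102 CPM, in replicate 4. Most of that sum came from 1 marker, *Prtn3*, with 1223 normalized counts in replicate 4. *Cebpe*, a transcription factor of late neutrophil development, had at most 1 count in any WT mouse and 92 to 251 counts in Nod2-/- mice, and it alone of the 15 passed 5% FDR in edgeR (adjusted p = 4.52e-08), while DESeq2 called 7. Without *Cebpe* the Nod2-/- range was 7.40 to 1082 CPM, and 6 of the 7 mice were above every WT mouse. *Ly6g*, a defining neutrophil marker, averaged 1.12 normalized counts in WT and 12.4 in Nod2-/- mice, with 82.7% of the latter in replicate 7. Across the Nod2-/- mice *Cebpe* did not follow *Ly6g*. *Cebpe* had 163 and 211 normalized counts in replicates 1 and 2, where *Ly6g* was at 0, and 142 in replicate 7, where *Ly6g* had 71.5. The 8 inflammatory monocyte markers summed to 24.4 to 61.3 CPM in WT and 35.1 to 175 CPM in Nod2-/- mice, and the 10 Kupffer cell and macrophage markers to 164 to 287 and 200 to 606 CPM. The members together summed to 14.7 to 36.6 CPM in WT and 23.4 to 186 CPM in Nod2-/- mice. Replicate 7 set these upper limits too, and without it the highest Nod2-/- sum was 66.6 CPM for monocyte markers, 367 CPM for Kupffer cell and macrophage markers and 55.7 CPM for the members. No gene of these 3 lists was at 0 in all mice. Positive log2 fold changes were found for 6 of 6 tested neutrophil markers (6 with an unadjusted p under 0.05), 5 of 5 monocyte markers (3), 9 of 10 Kupffer cell and macrophage markers (3), the 1 tested lymphocyte marker (1) and 5 of 8 hepatocyte markers (1, with 1 more lower). Without replicate 7 the numbers at an unadjusted p under 0.05 were 5 for neutrophil, 2 for monocyte and 1 for Kupffer cell and macrophage markers, and no lymphocyte marker was tested. Over all 13545 tested genes, 7088 were positive and 12.9% were higher at that p, or 10% of the genes tested without replicate 7. Among neutrophil markers *Cebpe*, with at most 1 count in any WT mouse, could pass the filter only through Nod2-/- mice. *Prtn3*, with 2 to 39 raw counts in WT and 13 to 1226 in Nod2-/- mice, passed it mostly through them. The positive direction of these genes was therefore not a free outcome. The largest and smallest log2 fold changes were 8.09 (*Cebpe*) and 1.79 (*Cxcr2*) for neutrophils, 2.22 (*Cd14*) and 0.39 (*Csf1r*) for monocytes, and 0.79 (*Cd5l*) and −0.85 (*Marco*) for Kupffer cells and macrophages. Without replicate 7 *Cxcr2* was at 0.09 and *Cd14* at 1.31. They were 0.53 (*Apoa1*) and −0.38 (*Cps1*) for hepatocytes and −1.70 (*Sftpd*) and −3.09 (*Sftpc*) for lung epithelium, and the lymphocyte gene was *Cd79b* (0.97). Lung epithelium genes were also present, at 13.6 to 198 CPM in WT and 2.87 to 32.2 CPM in Nod2-/- mice, with all 5 tested genes lower in Nod2-/- mice at an unadjusted p under 0.05.

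The rest of the oxidase was examined as a list of 9 genes, which includes 5 of the members. All 9 were tested, 7 had a positive and 2 a negative log2 fold change, and none passed 5% FDR in edgeR or DESeq2. At an unadjusted p under 0.05, 4 were higher (1 without Nod2-/- replicate 7), against a background of 12.9% of all tested genes (10% without it). These 4 were *Cybc1* and the members *Cybb*, *Ncf4* and *Rac2*, which were already counted above. The more widely expressed genes of the list differed little. *Rac1* had a log2 fold change of 0.01 and *Rap1a*, a small GTPase found with the membrane part, one of −0.12, although *Rac1* shares 2309 exon bases with *Daglb* on the opposite strand. *Cybc1*, which codes for the chaperone of the *Cybb* and *Cyba* pair, was at 0.26 (SE 0.12, adjusted p = 0.196). *Hvcn1*, the proton channel that balances the charge the oxidase moves, was at −0.15, or −0.52 without Nod2-/- replicate 7.

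*Nox4*, the catalytic subunit of another NADPH oxidase that makes hydrogen peroxide and also needs *Cyba*, differed in the opposite direction. It ranged from 678 to 958 normalized counts in the WT group (median 768) and from 262 to 694 in the Nod2-/- group (median 548), and 6 of the 7 Nod2-/- mice were below every WT mouse. Means were 783 ± 101 (SD, n = 6) and 500 ± 147 (SD, n = 7). This was a log2 fold change of −0.65 (SE 0.18, adjusted p = 0.0723, and 0.0172 by DESeq2), and it was past the edgeR threshold without WT replicate 3 (−0.70, adjusted p = 0.0397). In the fit without WT replicate 3 the background also rose, to 459 of 13611 tested genes lower at 5% FDR, from 69 of 13545 with all mice. Without Nod2-/- replicate 7, the mouse with the lowest *Nox4*, its log2 fold change was −0.54 (adjusted p = 0.102). Of the other 8 genes in the list of nonphagocyte oxidases, only *Noxo1* was tested (log2 fold change 0.40, adjusted p = 0.323, and 0.22 without Nod2-/- replicate 7). *Nox3*, *Duoxa1* and *Duoxa2* had no count in any mouse. *Nox1*, *Duox1* and *Duox2* had means of at most 1.26 normalized counts, and *Noxa1* had 4.37 in WT and 21.8 in Nod2-/- mice, of which replicate 7 held 56.6% of the sum.

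*Fpr1* and *Fpr2* were the only 2 of the 7 genes of the receptor family with any count, as *Fpr3*, *Fpr-rs3*, *Fpr-rs4*, *Fpr-rs6* and *Fpr-rs7* were at 0 in all 13 mice. Of their ligands, *Anxa1* had a log2 fold change of 1.23 (SE 0.56, adjusted p = 0.210), with 59.4% of its Nod2-/- total in replicate 7 and only that mouse above every WT mouse. Without replicate 7 it was 0.15 (SE 0.17). *Camp*, an antimicrobial peptide that neutrophils store and *Fpr2* can bind, had 0 to 2.7 normalized counts in WT and 2.0 to 401 in Nod2-/- mice and was below the filter. The 401 was replicate 7, next to 34.3 in replicate 5, and DESeq2, which tested this gene, gave an adjusted p of 0.0215.

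Of 8 kinases of the Src family, 7 were tested, all with a positive log2 fold change and none past 5% FDR in edgeR, where DESeq2 called 1 (*Fgr*). At an unadjusted p under 0.05, 2 were higher, against a background of 12.9% of all tested genes. These 2 were *Fgr* and *Frk*, an epithelial kinase (log2 fold change 0.57, SE 0.22, adjusted p = 0.143). *Lyn*, present in B cells and myeloid cells, was at 0.16 and *Lck*, the kinase of T cells, at 0.56. *Src*, *Fyn* and *Yes1*, found in many cell types, were at 0.26 (SE 0.29), 0.21 (SE 0.15) and 0.03 (SE 0.10). *Blk*, of B cells, was below the filter with 1.29 and 2.77 normalized counts.

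Of 20 genes that carry the signal from receptors to the oxidase, 19 were tested, with none past 5% FDR in edgeR and 3 in DESeq2. At an unadjusted p under 0.05, 8 were higher (5 without Nod2-/- replicate 7), against a background of 12.9% of all tested genes (10% without it). A positive log2 fold change was found for 18, beside 7088 of all 13545 tested genes, with a median of 0.59 over the 19. The largest was *Pak1*, a kinase that Rac proteins activate, at 1.69 (SE 0.44, adjusted p = 0.0659, and 0.00416 by DESeq2). Its Nod2-/- mean of 115 ± 41.5 (SD, n = 7) normalized counts was not led by replicate 7, which held 16.4% of the total. Its WT mean of 35.3 ± 34.5 (SD, n = 6) was raised by WT replicate 3, without which the log2 fold change was 2.39 (adjusted p = 0.00212). In that fit 697 of 13611 tested genes were higher at 5% FDR. The smallest was *Prex1*, an exchange factor for Rac proteins, at −0.27.

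**Figure D5:**
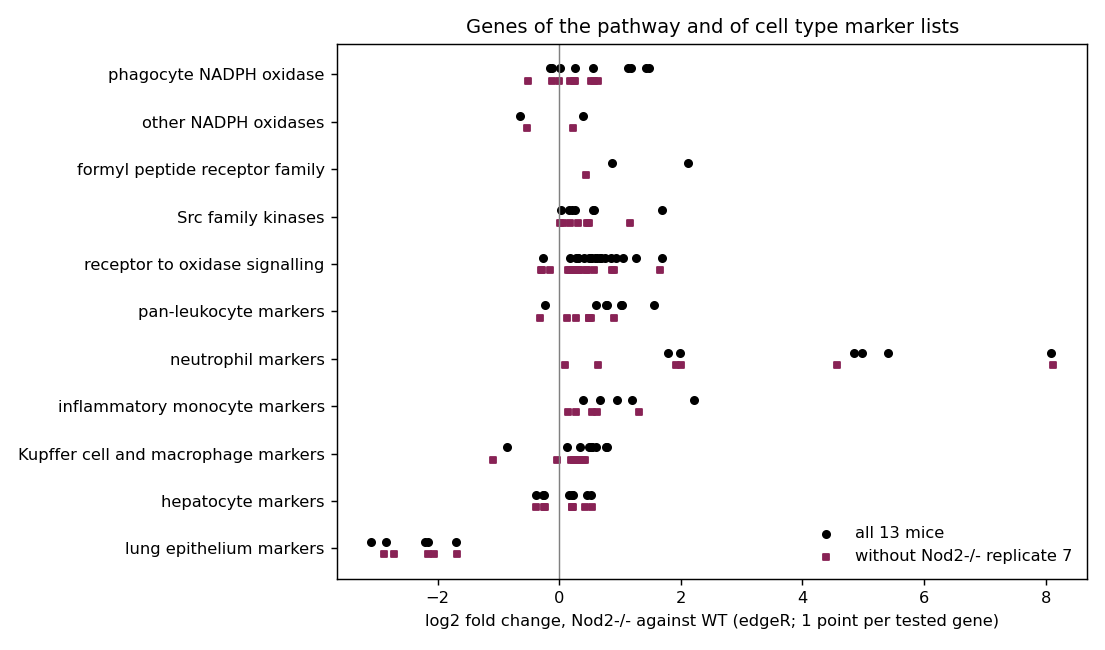
Log2 fold changes (Nod2-/- against WT, edgeR) of the tested genes of each list, with 1 point per gene, for all 13 mice (black circles) and without Nod2-/- replicate 7 (purple squares). Most phagocyte oxidase and leukocyte points move toward 0 without that mouse, neutrophil markers reach furthest to the right, and lung epithelium markers are all below 0.

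The genes whose log2 CPM followed *Cybb* most closely over the 13 mice, outside the members, were *Tyrobp* (Pearson's r 0.97), *Fcgr4* (0.97), *Cd5l* (0.96), *Myo1f* (0.96) and *Fcer1g* (0.96). *Tyrobp* and *Fcer1g* code for signalling adaptors of myeloid receptors, *Fcgr4* for an Fc receptor and *Cd5l* for a secreted protein of macrophages. For these 5 genes r was still 0.90 to 0.94 without Nod2-/- replicate 7 and 0.93 to 0.97 within the 6 WT mice. The genes most like *Fpr2* were *S100a8* (0.94), *Pirb* (0.93), *Tmsb4x* (0.93), *Casp1* (0.92) and *Ptpn18* (0.92), of which *S100a8* codes for an abundant neutrophil protein. Their r was 0.79 to 0.83 without replicate 7 and 0.20 to 0.70 within WT mice, where *Fpr2* had few counts. The 2 sets of 5 have no gene in common, and these likenesses are descriptions without a test.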

How the data were processed

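Liver RNA of 6 WT and 7 Nod2-/- mice was sequenced as strand-specific, polyadenylated, paired-end libraries, 1 per mouse. According to their processing notes and methods, the authors used Trimmomatic 0.33 for trimming and TopHat2 2.1.1 for mapping to GRCm38, and deposited raw counts per gene. The counting program and its strand setting are not given in the sources used here, so overlapping genes are uncertain. Of 53465 genes, 53274 were matched to names and positions of GENCODE M21. One line without identifier or values was left out.

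The test was the quasi-likelihood F-test of edgeR 4.0.16 (R 4.3.3) after filterByExpr and TMM scaling, with genotype as the only factor. Adjusted p-values are Benjamini-Hochberg values over 13545 genes, with a threshold of 0.05. This was checked on simulated data. Normalized counts are CPM on TMM-scaled totals, multiplied back to the mean scaled total, and log2 CPM used a prior count of 2. Totals of 13824780 to 20579984 counts limit precision for genes with few counts, and intervals of counting were not used. Each library is a different mouse, so p-values measure the spread between mice. Libraries of a genotype differed by more than sampling noise in all 36 pairs (chi-square divided by its degrees of freedom, 11.4 to 179). Samples with the same replicate number did not deviate together (correlations −0.30 to 0.30), so the number was not used as a block.

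The text names the 8 members, all genes of the oxidase, receptor, ligand and Src lists, of other lists the genes past 5% FDR or with the largest and smallest fold change, and the 5 genes most like *Cybb* and *Fpr2*. *Ly6g*, *Prtn3*, *Ptprc* and *Vav1* were named after their values were seen. Results for some genes of these lists are not reported here, and the lists were counted without them. The members and lists were chosen with earlier results of these data known. Alternatives were DESeq2 1.42.0, voomWithQualityWeights of limma 3.58.1, RLE scaling, no filter, at least 10 counts in every mouse, a robust fit, a replicate block, removal of the 20 most abundant genes, and leaving out mice.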

Additional observations from a re-analysis of the deposited data

Results flagged for a closer look

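A sample was picked out when its gap to the nearest other mouse of its genotype, as a share of that genotype's whole range, exceeded Dixon's 95% critical value. Of 54 groups checked, 21 were picked out, and these groups share mice and are not independent. The gaps were taken on values that were not logged. A rate of about 1 in 20 by chance holds only for a normal spread, which was not tested, so the 21 have no chance rate beside them. In 18 of the 21 the mouse was Nod2-/- replicate 7, at the high end.

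For the members the gap was 0.788 of the Nod2-/- range for *Cybb*, 0.624 for *Cyba*, 0.844 for *Ncf1*, 0.884 for *Ncf4*, 0.768 for *Rac2*, 0.583 for *Fpr1*, 0.694 for *Fpr2* and 0.743 for *Fgr*, in each case with replicate 7 highest. Among related genes replicate 7 was likewise apart in *Anxa1* (0.943) and *Vav1* (0.733), an exchange factor for Rac proteins. It was also apart in the summed CPM of the members (0.801) and of the lists of the phagocyte NADPH oxidase (0.666), formyl peptide receptors (0.658) and their ligands (0.949). The same held for the summed pan-leukocyte (0.696), neutrophil (0.921), inflammatory monocyte (0.776), and Kupffer cell and macrophage markers (0.59).

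The other 3 were WT replicate 3, highest for *Pak1* (0.766), WT replicate 4, highest for the summed lymphocyte markers (0.631), and Nod2-/- replicate 4, highest for the summed hepatocyte markers (0.67).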

How the results depend on the processing

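The log2 fold change of each member was above 0 under every alternative that gave one, with a range of 0.57 to 1.86 for *Cybb*, 0.25 to 0.68 for *Cyba*, 0.17 to 1.28 for *Ncf1*, 0.59 to 1.57 for *Ncf4*, 0.51 to 1.38 for *Rac2*, 0.45 to 1.11 for *Fpr1*, 1.03 to 2.28 for *Fpr2* and 1.16 to 1.83 for *Fgr*. *Fpr2* could not be tested under 7 of 22 alternatives and *Fpr1* and *Fgr* under 1 each, because they fell below the filter. DESeq2 called 605 higher and 549 lower genes and 2 members, *Fpr2* (2.11) and *Fgr* (1.68). voomWithQualityWeights called 519 higher and 324 lower genes and no member. With the replicate block, in which Nod2-/- replicate 7 has no partner, 17 genes were higher and 18 lower and no member was called. Leaving out 1 mouse at a time gave 20 to 697 higher and 20 to 459 lower genes, 0 to 1 members at 5% FDR, and 0 to 1 members without overlap. The highest gene counts came without WT replicate 3, and the count in at least 1 direction moved by over 1.5 times without any mouse but WT replicate 6 and Nod2-/- replicates 2 and 5. A member without overlap appeared without WT replicate 3, WT replicate 6 or Nod2-/- replicate 1. Leaving out a mouse gave *Fgr* a log2 fold change of 1.16 to 1.83. Without WT replicate 3 and Nod2-/- replicate 7 together there were 408 higher and 159 lower genes, and 1 member did not overlap. In the ratio to leukocyte genes, *Fpr1* turned to −0.0749 against *Ptprc* alone, and *Ncf1* ranged from −0.17 to 0.11 when 1 mouse was left out. *Fgr* kept its direction and its p under 0.05 in all 15 alternatives of that ratio. The cause of these changes was not tested, and genes with few counts such as *Fpr2* are limited by depth.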
